A study of Mus musculus with 13 samples.

Results

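SOX transcription factors of neural, glial, neuronal and endothelial lineages were examined in the cerebral meninges of newborn mice. The 10 genes were chosen by name, with earlier results of these data known: Sox1, Sox2 and Sox3 (the SOXB group of neural progenitors), Sox4 and Sox11 (the SOXC group of maturing neurons), Sox8, Sox9 and Sox10 (the SOXE group of glia, neural crest and cartilage), and Sox17 and Sox18 (the SOXF group of endothelium). They are 10 of the 19938 genes that were tested, and each was read from its brightest array probe set that carries 1 gene symbol. Each of the 10 had exactly 1 such probe set, so the rule left no choice between probe sets.

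Meninges were dissected from the cerebrum of pups of 1 litter (strain labelled C57BL6), and total RNA of each mouse was hybridised to its own Affymetrix Mouse Gene 1.0 ST array. The 4 mutants were Pdgfc-/-; Pdgfra GFP/+, lacking the growth factor PDGF-C and carrying 1 null allele of the receptor gene Pdgfra, which expresses GFP from the Pdgfra promoter. The 9 controls were littermates of mixed genotypes, with or without the GFP allele: Pdgfc+/+ and Pdgfc+/- mice of both kinds, and Pdgfc-/- mice with intact Pdgfra. Which control had which genotype is not labelled, so the control spread holds the effect of these alleles, some of which the mutants carry too.

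SOX proteins bind DNA through a shared HMG domain that bends the helix, and close relatives often stand in for each other. Members of a group tend to mark the same lineage: Sox2 keeps neural progenitors undifferentiated, Sox4 and Sox11 switch on pan-neuronal genes as progenitors leave the cycle, Sox9 and Sox10 specify glia and neural crest derivatives, and Sox17 and Sox18 act in the specification of arteries and lymphatic vessels. The meninges are built of fibroblasts and vessels rather than of neural cells, which makes the SOX genes readouts of several cell types that may be present in a dissected sample.

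The start-site regions of the 3 genes that rose, and of Sox1, the SOXB relative of Sox2 for which no change was called, are shown because these genes carry the main contrast of the data. RefSeq sequences of 250 bases before and 50 after the start (build GRCm38.p6) were matched for 5 of the 10 members, namely Sox1, Sox2, Sox4, Sox8 and Sox11. Each is printed 5′ to 3′ on the strand of its gene. Capitals mark the CCAAT box (CCAAT, or ATTGG on the other strand) and the core sequence recognised by SOX proteins (ACAAAG or ACAATG, both strands searched), and no match of one overlapped a match of another.
Sox2 promoter, chr3:34649745-34650044, plus strand: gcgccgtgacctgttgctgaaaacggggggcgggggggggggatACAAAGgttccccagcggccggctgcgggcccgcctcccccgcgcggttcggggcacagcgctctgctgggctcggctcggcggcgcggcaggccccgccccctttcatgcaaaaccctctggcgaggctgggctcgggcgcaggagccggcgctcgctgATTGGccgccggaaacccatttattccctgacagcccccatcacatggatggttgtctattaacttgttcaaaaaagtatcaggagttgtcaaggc
Sox11 promoter, chr12:27342669-27342968, minus strand: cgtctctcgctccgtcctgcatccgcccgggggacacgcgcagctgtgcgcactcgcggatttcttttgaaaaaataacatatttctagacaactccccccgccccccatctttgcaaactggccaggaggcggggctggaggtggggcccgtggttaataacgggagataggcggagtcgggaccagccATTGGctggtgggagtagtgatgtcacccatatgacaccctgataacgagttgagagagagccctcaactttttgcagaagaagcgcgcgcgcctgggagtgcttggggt
Sox4 promoter, chr13:28953650-28953949, minus strand: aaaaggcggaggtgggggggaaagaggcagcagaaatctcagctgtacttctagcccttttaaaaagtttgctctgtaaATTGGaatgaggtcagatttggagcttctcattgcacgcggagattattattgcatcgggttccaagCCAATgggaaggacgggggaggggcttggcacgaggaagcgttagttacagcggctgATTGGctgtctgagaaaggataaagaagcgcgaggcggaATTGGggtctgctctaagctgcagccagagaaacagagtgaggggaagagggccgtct
Sox1 promoter, chr8:12395269-12395568, plus strand: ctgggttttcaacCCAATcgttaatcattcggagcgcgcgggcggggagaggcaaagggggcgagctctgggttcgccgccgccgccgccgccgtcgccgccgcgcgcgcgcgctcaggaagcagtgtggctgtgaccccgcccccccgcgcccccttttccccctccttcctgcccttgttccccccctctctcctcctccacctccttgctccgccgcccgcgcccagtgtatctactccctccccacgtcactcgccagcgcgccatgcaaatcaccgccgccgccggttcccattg

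The Sox4 window held 4 CCAAT boxes, starting at -171, -104, -47 and -8 relative to the start site. The windows of Sox2, Sox11 and Sox1 held 1 each, at -46, -60 and -237, and that of Sox8 held none. A CCAAT box was found in 37.4% of 32851 mouse promoter windows of the same length. Of these 5 windows only that of Sox2 held the SOX core, as ACAAAG at -206, whereas 28.6% of all windows held ACAAAG or ACAATG. These matches are descriptions of letters, and binding was not measured.

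Before the SOX genes, the arrays were checked as a whole. Pdgfc lay at 22.8 to 29.3 intensity units in the mutants, against 103 to 275 in 8 controls and 5.88 in control 2. The array medians, over all probe sets, spanned 56.0 to 89.7 in mutants and 44.1 to 89.0 in controls, so the deposited values do not share 1 brightness. Of 12 meningeal fibroblast genes 2 rose and 2 fell: the retinoic acid binding protein gene Crabp2 fell by 1.25 and the matrix gene Ogn by 1.09 (log2), while the collagen gene Col3a1 rose by 0.53 (limma adjusted p = 6.71e-07, 2.60e-05 and 0.0117). Their summed level overlapped, at 23884 to 34761 in mutants and 25552 to 35360.3 in controls. Of 9 reference genes 0 rose and 2 fell, B2m by 0.65 and Sdha by 0.43, and the log2 fold change of Hprt was -0.44 (limma adjusted p = 0.00524, 0.0301 and 0.0506). Xist, the RNA of the inactive X chromosome, was at 2.24 to 4.77 in the 4 mutants and at 4.78 to 8.73 in controls 1, 5 and 8, but at 536 to 1019.6 in the other 6 controls. Eif2s3y, a gene of the Y chromosome, read 359 to 556 in mutants and 408 to 515 in controls 1, 5 and 8. Its range was 1.64 to 3.76 in the remaining 6. By both genes the 4 mutants and those 3 controls read as male, and the remaining 6 controls as female. Sex was thus unbalanced between the groups, and a comparison of all 13 mice mixes genotype with sex. Values for controls of like Xist level, all read as male, are therefore given beside the called genes.

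Of the 10 SOX genes, 3 rose and 1 fell in the mutant meninges. Sox11 rose 7.54-fold, Sox2 3.99-fold and Sox4 1.76-fold, and Sox18 fell 1.69-fold, while no change was called for Sox1, Sox3, Sox8, Sox9, Sox10 or Sox17. A call required an adjusted p under 0.05 (limma, two-sided, Benjamini-Hochberg over all 19938 genes) on the log2(intensity + 16) scale, the scale of every fold change given. Over all tested genes, 8.58% rose, 6.31% fell and 14.9% were called in either direction. The mutant and control values did not overlap for 3 of the 10 members, Sox2, Sox4 and Sox11, against 9.44% of all genes. The median log2 fold change was 0.17 over the 10 members and 0.0043 over all genes.

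**Figure D1:**
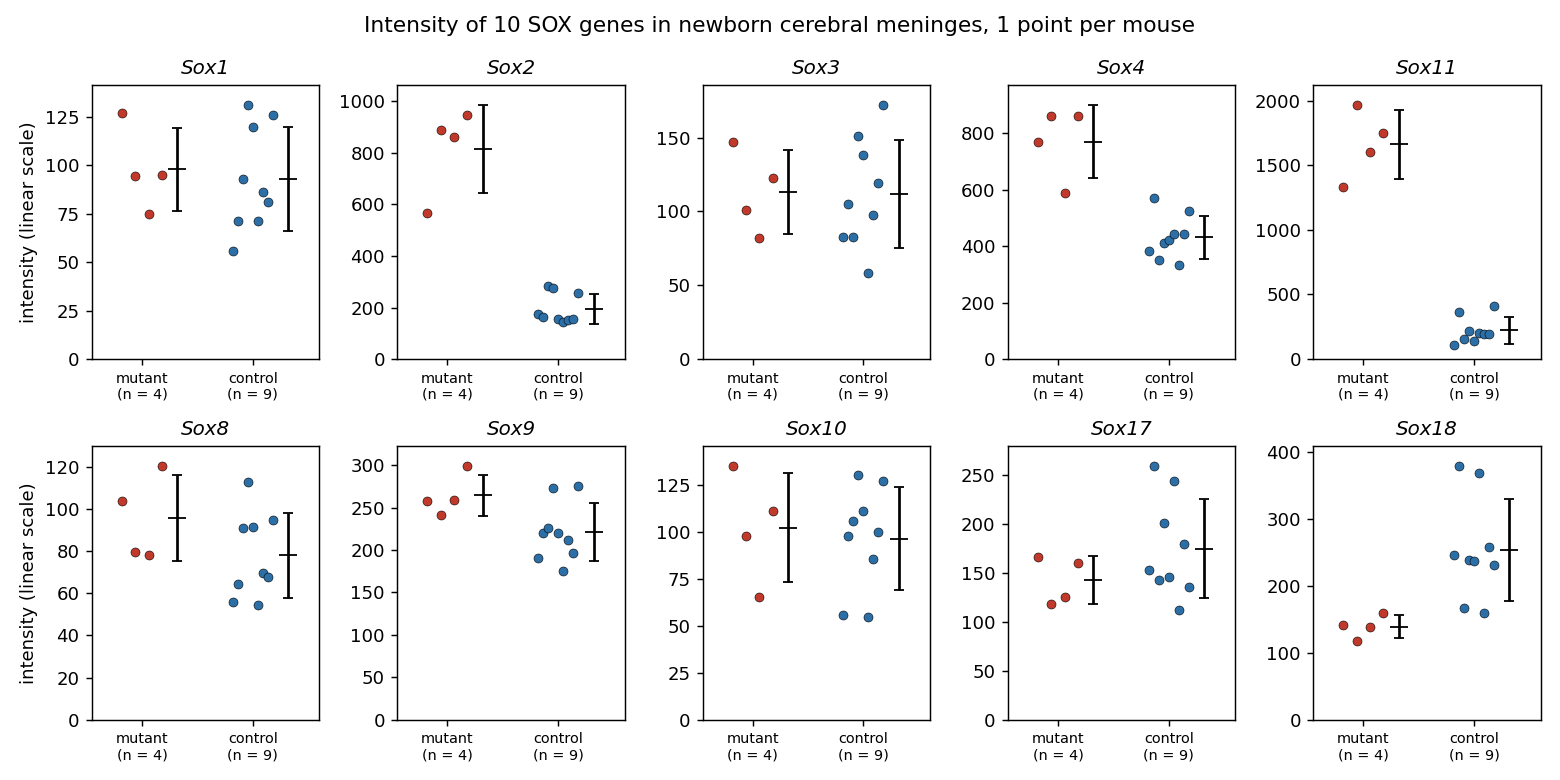
Array intensity (linear axis, starting at 0) of each of the 10 SOX genes, 1 point per mouse, with the 4 mutants (red) left of the 9 controls (blue) in each panel; the bars beside the points are the mean and SD. All mutants lie above all controls for Sox2, Sox4 and Sox11, for Sox18 only mutant 4 (160.1) exceeds a control (control 7, at 159.9), and the groups overlap for the other 6 genes.

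**Figure D2:**
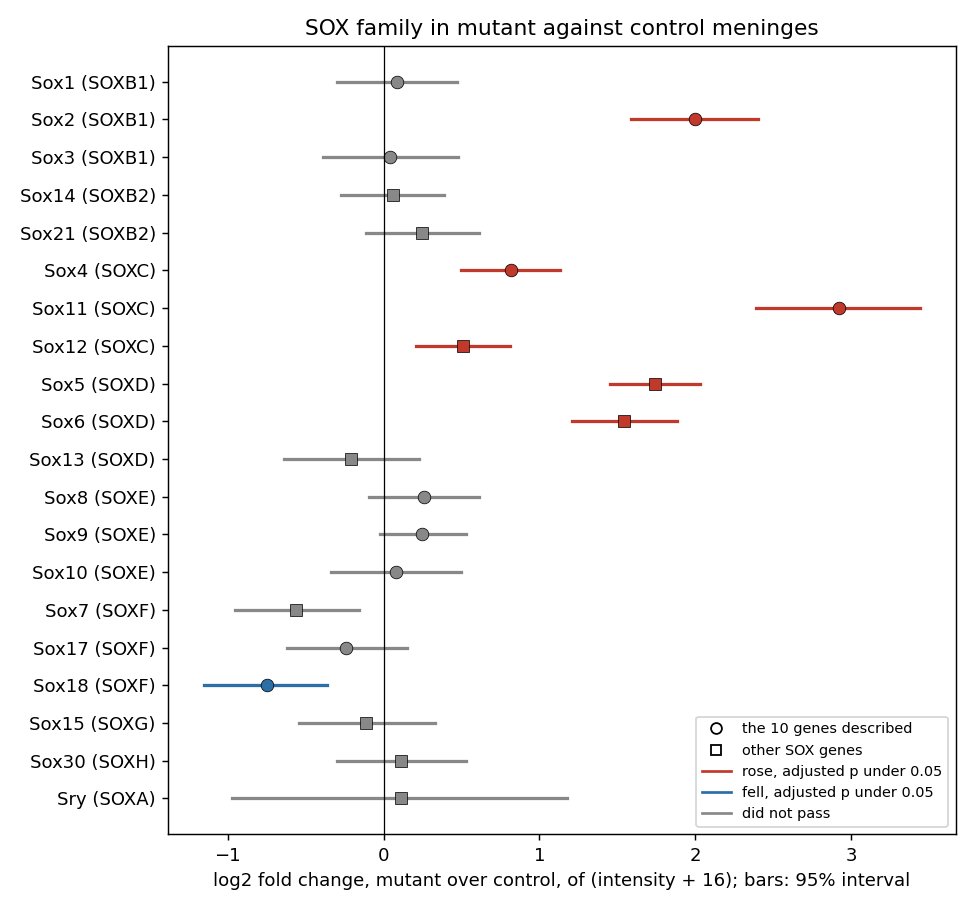
Log2 fold change (mutant over control, on intensity + 16) of the 10 SOX genes (circles) and of the other 10 measured SOX genes (squares), ordered by SOX group, with 95% confidence intervals from limma; red rose, blue fell and grey was not called. Sox2, Sox4 and Sox11 lie right of 0 with Sox5, Sox6 and Sox12, and Sox18 lies left of it.

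Among the SOXB genes only Sox2 was called. Sox2, which maintains neural stem and progenitor cells, was at 566, 888, 861 and 946 in the 4 mutants and at 145 to 282 in the 9 controls (median 163). All mutants lay above all controls, and within the mutants the lowest value was that of mutant 1. The means were 815 ± 170.1 in mutants (SD, n = 4) and 195 ± 58.1 in controls (SD, n = 9), a log2 fold change of 2.0 (SE 0.19, 95% CI 1.59 to 2.40, limma adjusted p = 2.08e-07). The exact permutation test over the 715 splits of 13 mice gave p = 0.00140 (two-sided), the smallest value it can give. In the 3 controls whose Xist was as low as in the mutants, Sox2 stayed at 154 to 173.

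Sox1, which marks neuroepithelium and is often used alongside Sox2, was at 127, 94.5, 74.9 and 95.2 in mutants and at 55.6 to 131 in controls (median 86.0). The 4 mutant values lay inside the control range, and the log2 fold change was 0.087 (95% CI -0.30 to 0.47, limma adjusted p = 0.943). Sox3, the X-linked SOXB gene, was at 147, 101, 81.7 and 123 in mutants and at 58.3 to 172 in controls (median 105). Its mutant values were again inside the control range, with a log2 fold change of 0.043 (95% CI -0.39 to 0.48, limma adjusted p = 0.987). Both intervals exclude a change in signal as large as that of Sox2. The Sox1 and Sox3 values compare with array medians of 56.0 to 89.7 in mutants and 44.1 to 89.0 in controls. How much of this signal is background was not tested. The direction of Sox1 and of Sox3 turned under other scalings of the arrays, so neither is given a direction.

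The difference between these relatives was tested within each mouse, as the log2 value of 1 gene minus that of the other, in which a factor common to the whole array largely cancels. Over the family, 8 pairs of the same SOX group were compared by exact permutation (two-sided) and adjusted with Benjamini-Hochberg. The fold change of Sox2 exceeded that of Sox3 by 1.95 (log2) and that of Sox1 by 1.91 (exact p = 0.00140, adjusted p = 0.00280 for each). The ratio of Sox2 to Sox3 signal, taken like all such ratios on intensity + 16, was 3.56 to 8.98 in mutants and 1.10 to 3.02 in controls, without overlap. Sox1 and Sox3 differed by 0.043 in fold change (exact p = 0.752, adjusted p = 0.860). A ratio of 2 probe sets depends on their affinities, so only its difference between the groups was read. Since the background in the Sox1 and Sox3 values was not tested, these are differences of signal and may not hold for the transcripts.

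The genes commonly used for neural progenitors moved less than Sox2. Of 11 measured progenitor genes, 3 rose and 0 fell, with a median log2 fold change of 0.38: Msi1, an RNA-binding protein of progenitors, rose by 1.18, and the cortical patterning factors Lhx2 and Emx2 rose by 0.99 and 0.65 (limma adjusted p = 2.15e-05, 0.00125 and 0.00788). Their summed level was 4105 to 6304 in mutants and 2963 to 4188 in controls. The log2 level of Sox2 relative to the mean of these genes was higher by 1.55 in mutants (1.12 to 2.15 in mutants, -0.19 to 0.81 in controls, exact permutation p = 0.00140, adjusted p = 0.00280 over 6 such comparisons, which were chosen after the values were seen). Genes of like pattern were picked over all 13 mice, mutants included, so their calls follow from the choice and are only described. Nearest to Sox2 were Acsl6, Elovl2 and Syt11, at a root mean square difference of 0.17, 0.17 and 0.18 between z-scored values. The log2 fold changes of Acsl6, of Elovl2, an elongase of long fatty acids, and of Syt11, a synaptotagmin, were 1.09, 1.91 and 1.78.

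Both SOXC genes rose, Sox11 by far more than Sox4. Sox11 was at 1330.4, 1965, 1606 and 1747 in the 4 mutants and at 106 to 409 in the 9 controls (median 197). The lowest mutant was thus well above the highest control, and the 2 highest controls were control 9 (409) and control 2 (366). Means were 1662 ± 266 in mutants (SD, n = 4) and 221 ± 101 in controls (SD, n = 9). The log2 fold change of 2.92 (SE 0.25, 95% CI 2.39 to 3.44, limma adjusted p = 4.35e-08) was the largest of the 10 members. The exact permutation p was 0.00140, the smallest possible, and the low-Xist controls were at 106 to 197.

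Sox4, which acts with Sox11 in neurons but is also made by many other tissues, was at 769, 862, 586 and 859 in mutants and at 332 to 571 in controls (median 421). The groups did not overlap, although mutant 3 (586) was close to control 2 (571). The means of 769 ± 129.6 in mutants (SD, n = 4) and 431 ± 77.1 in controls (SD, n = 9) gave a log2 fold change of 0.82 (SE 0.15, 95% CI 0.50 to 1.13, limma adjusted p = 5.96e-04, exact permutation p = 0.00140). Sox4 was at 381 to 442 in the low-Xist controls. The fold changes of Sox4 and Sox11 differed by -2.10 (log2, Sox4 minus Sox11, exact permutation p = 0.00140, adjusted p = 0.00280). The ratio of Sox4 to Sox11 signal was 0.371 to 0.583 in mutants and 1.27 to 3.26 in controls.

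**Figure D3:**
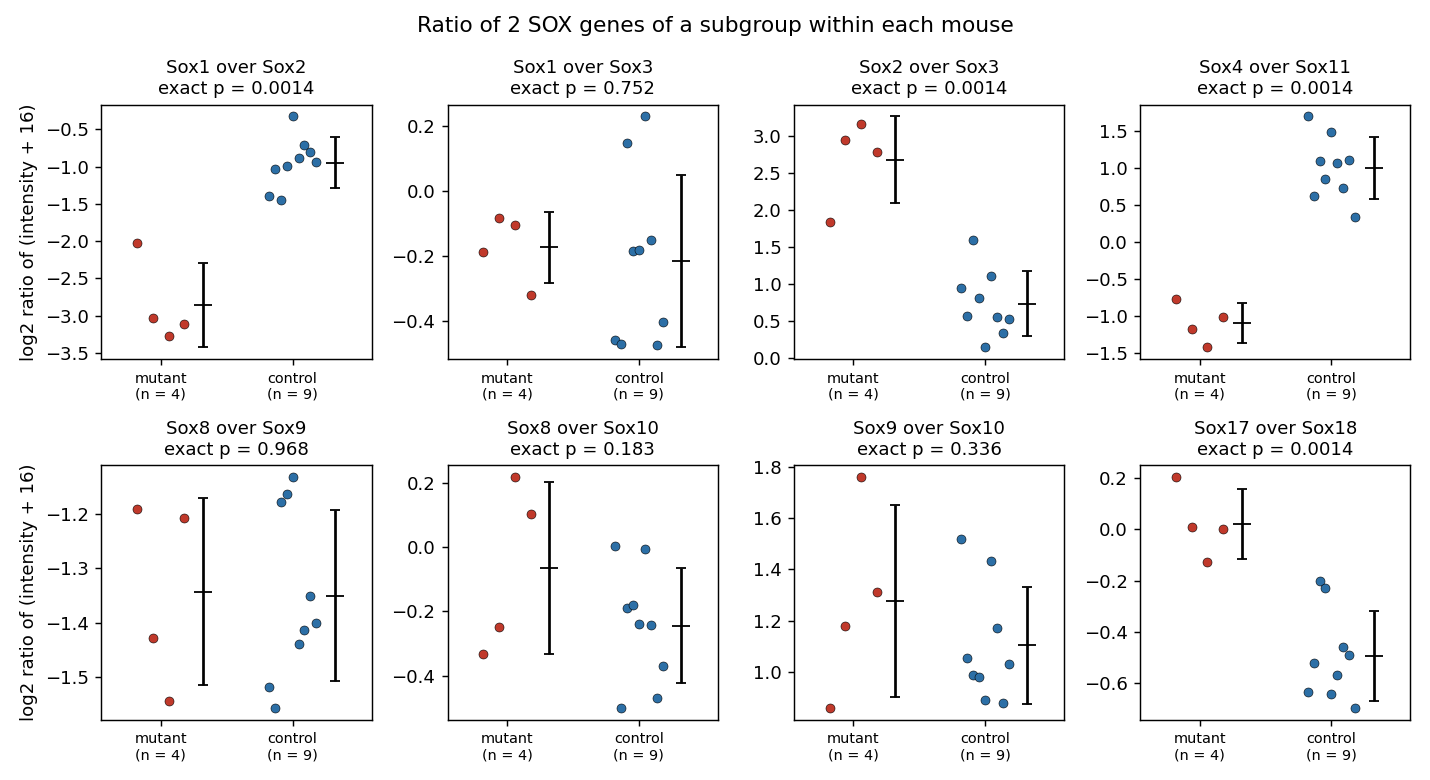
Log2 ratio of intensity + 16 for 8 pairs of SOX genes of the same group, 1 point per mouse, mutants (red) left of controls (blue), with mean and SD beside the points and the unadjusted exact permutation p above each panel; the vertical axes differ and do not start at 0. The groups do not overlap for Sox1 over Sox2, Sox2 over Sox3, Sox4 over Sox11 and Sox17 over Sox18, and they overlap for the other 4 pairs.

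Young neuron genes moved with both. Of 11 measured, 10 rose and 0 fell, with a median log2 fold change of 3.23 and a summed level of 11658 to 14649 in mutants against 935 to 3613 in controls. Bcl11b, a factor of deep-layer cortical neurons, rose by 3.51, the dendritic protein gene Map2 by 2.69 and the RNA-binding protein gene Elavl4 by 2.63 (log2, limma adjusted p = 2.49e-09, 6.44e-09 and 6.66e-09). None of the 11 was at 0 in any mouse. Their part in the SOX result was not tested, and in bulk RNA a difference in the number of cells of a type and a difference in RNA per cell cannot be told apart. Relative to the mean of the young neuron genes, Sox11 differed by 0.23 between the groups (exact permutation p = 0.176, adjusted p = 0.211) and Sox2 by -0.68 (exact p = 0.0629, adjusted p = 0.0944). Sox4 was lower relative to that mean in mutants by 1.87 (-0.10 to 0.13 in mutants, 1.14 to 2.59 in controls, exact p = 0.00140, adjusted p = 0.00280).

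Within the controls, Sox11 varied with the same genes. Values were not centred on the array, so a brightness shared by an array enters both sides of these relations. Sox11 itself had r = 0.49 with the array median (exact permutation p = 0.177), and the part of brightness was not tested. Over the 9 controls, Sox11 and the mean log2 level of the young neuron genes had Pearson's r = 0.90 (exact permutation p = 0.0014, adjusted p = 0.00477 over 17 relations, chosen after the values were seen) and Spearman's rho = 0.80 (exact p = 0.0138, adjusted p = 0.0392). Without controls 2 and 9, the mice farthest from the median of the list, r was 0.67. For Sox4 the same relation had r = 0.59 (exact p = 0.0928, adjusted p = 0.158) and r = -0.16 without those mice, and rho was 0.43 (exact p = 0.25). For Sox2 r was 0.34 (exact p = 0.368) and rho 0.22 (exact p = 0.581).

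The nearest patterns to Sox11 over the 13 mice were those of Uchl1, a ubiquitin hydrolase abundant in neurons, Tmem74 and the reticulon Rtn2, at root mean square differences of 0.10, 0.12 and 0.14. Their log2 fold changes were 2.45, 1.95 and 2.05. The nearest to Sox4 were the tubulin-binding stathmin Stmn1, the kinase Fyn and the tubulin gene Tuba1a, at 0.16, 0.19 and 0.19. The log2 fold changes of these genes were 0.97, 1.16 and 0.94.

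The SOXE genes of glia, neural crest and cartilage had no call. Sox9, which acts in radial glia, astrocytes and chondrocytes, was at 258, 241, 259 and 299 in mutants and at 175 to 276 in controls (median 219.6). All 4 mutants were above the control median but only mutant 4 was above the highest control. The means were 264 ± 24.8 in mutants (SD, n = 4) and 221 ± 34.3 in controls (SD, n = 9). The log2 fold change was 0.25 (SE 0.13, 95% CI -0.025 to 0.53, limma adjusted p = 0.278). The exact permutation test of Sox9 alone gave p = 0.0490, not adjusted for the number of genes.

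Sox8, a relative with overlapping roles in glia, was at 104, 79.5, 78.4 and 120.4 in mutants and at 54.5 to 113 in controls (median 69.6). All 4 mutants were above the control median and mutant 4 above the highest control, with a log2 fold change of 0.26 (95% CI -0.095 to 0.61, limma adjusted p = 0.447). Sox10, required for oligodendrocytes, Schwann cells and melanocytes, was at 135, 97.5, 65.2 and 111 in mutants and at 54.8 to 130.3 in controls (median 99.7). Mutants lay on either side of the control median, and the log2 fold change was 0.08 (95% CI -0.34 to 0.50, limma adjusted p = 0.960), with a sign that turned under other scalings. The Sox8 and Sox10 values compare with array medians of 56.0 to 89.7 in mutants and 44.1 to 89.0 in controls. As for Sox1 and Sox3, how much of this signal is background was not tested. The 3 SOXE pairs gave no call: the fold changes differed by 0.0059 for Sox8 minus Sox9, 0.18 for Sox8 minus Sox10 and 0.17 for Sox9 minus Sox10 (exact permutation p = 0.968, 0.183 and 0.336, adjusted p = 0.968, 0.293 and 0.448).

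The lists for the lineages of these genes were mixed. Of 11 oligodendrocyte lineage genes 3 rose and 1 fell, and the 3 with the smallest adjusted p all rose: Lhfpl3 and Ptprz1, which are expressed in precursors, by 1.55 and 1.35, and the lineage factor Olig1 by 1.14 (log2, limma adjusted p = 1.99e-05, 5.26e-05 and 1.61e-04). Of 10 astrocyte and radial glia genes 0 rose and 3 fell: the gap junction genes Gjb6 and Gja1 fell by 1.21 and 0.40 and the glutamate transporter Slc1a3 by 0.60 (limma adjusted p = 6.25e-06, 0.0452 and 0.00665). Meningeal fibroblasts are also known to express connexins, so the names of these lists do not fix the cell type. None of 11 Schwann cell and melanocyte genes and none of 8 cartilage genes passed in either direction with limma. At an unadjusted p under 0.05, 1 of the first list (Ednrb, an endothelin receptor of crest cells, log2 fold change -0.45, unadjusted p = 0.00787) and 0 of the second were found. The next smallest adjusted p of the first list were those of Cdh19 and Mitf, with log2 fold changes of 0.16 and -0.19, and those of the second were the values of the matrix genes Col9a2, Comp and Hapln1, with -0.42, -0.26 and -0.17. Their summed levels overlapped, at 703 to 1134 in mutants and 866 to 1348 in controls for the first list, and at 550.3 to 994 in mutants and 521 to 1095 in controls for the second.

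The levels of Sox3 and Sox10, neither of which was called, moved with the brightness of the array in the controls. After adjustment, Sox9, also uncalled, passed by r but not by rho, and Sox1 and Sox8 passed by neither. Over the 9 controls, Sox3 and the array median (log2) had r = 0.97 (exact permutation p = 1.10e-05, adjusted p = 1.87e-04; rho = 0.97, adjusted p = 9.37e-04), and r was 0.95 without controls 3 and 6, the mice farthest from the median brightness. Sox10 had r = 0.84 (exact p = 0.0047, adjusted p = 0.0133; rho = 0.80, adjusted p = 0.0392) and r = 0.99 without those mice. For Sox9, Sox1 and Sox8, r was 0.77, 0.73 and 0.67 (exact p = 0.0169, 0.0302 and 0.0576, adjusted p = 0.041, 0.0641 and 0.109). Their rho was 0.72, 0.72 and 0.75 (exact permutation, adjusted p = 0.0696, 0.0696 and 0.0619), and r was 0.82, 0.90 and 0.86 without those mice. For the called genes r was 0.49 for Sox11, 0.42 for Sox4, 0.25 for Sox2 and -0.07 for Sox18 (exact p = 0.177, 0.262, 0.494 and 0.852), and for Sox17, also uncalled, it was -0.13 (exact p = 0.741). The difference between these correlations was not tested. The uncalled neural SOX genes lay between 54.5 and 299 units in every mouse.

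The nearest patterns to these genes were looser. For Sox10 they were the homeobox genes Dbx1 and Evx2 and the forkhead gene Foxb1, at root mean square differences of 0.41 to 0.45. For Sox1 they were Gcnt3, Scin and Agbl2 (0.38 to 0.42) and for Sox3 Mir146b, Spata32 and Magea10 (0.45 to 0.52). For Sox8 and Sox9 they were genes that include astrocyte products: Tmem215, Hepacam and Ppm1e for Sox8 (0.48 to 0.56), and Slc15a2, Aldh1l1 and A2m for Sox9 (0.45 to 0.49). The log2 fold changes of Tmem215, of Hepacam, a glial adhesion protein gene, and of Ppm1e were 0.25, 0.63 and 0.38. Those of Slc15a2, of the folate enzyme gene Aldh1l1 and of A2m were 0.19, 0.49 and 0.30.

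Of the endothelial SOXF genes, Sox18 fell and Sox17 had no call. Sox18, a regulator of vessel and lymphatic development, was at 142, 117, 138 and 160.1 in mutants and at 159.9 to 379 in controls (median 238). The groups overlapped only through mutant 4 (160.1) and control 7 (159.9), and the highest controls were control 2 (379) and control 6 (369). Means were 139 ± 17.5 in mutants (SD, n = 4) and 254 ± 76.3 in controls (SD, n = 9), a log2 fold change of -0.75 (SE 0.19, 95% CI -1.15 to -0.36, limma adjusted p = 0.00867, exact permutation p = 0.00699). In the low-Xist controls Sox18 was at 237 to 258, all above the mutants. With the Xist level as a covariate the log2 fold change was again -0.75 but the adjusted p was 0.0825, above the threshold.

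Sox17, which acts in arterial endothelium, was at 166, 118, 125 and 160.3 in mutants and at 112 to 259 in controls (median 153). All mutants lay inside the control range, with mutants 2 and 3 below its median and mutants 1 and 4 above it. The means of 142 ± 24.3 in mutants (SD, n = 4) and 175 ± 50.4 in controls (SD, n = 9) gave a log2 fold change of -0.24 (SE 0.18, 95% CI -0.62 to 0.15, limma adjusted p = 0.573, exact permutation p = 0.269). Within each mouse, however, the fold changes of Sox17 and Sox18 differed by 0.52 (log2, Sox17 minus Sox18, exact permutation p = 0.00140, adjusted p = 0.00280). The ratio of Sox17 to Sox18 signal was 0.917 to 1.15 in mutants and 0.618 to 0.869 in controls.

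Endothelial genes were lower in the same mice. Of 12 pan-endothelial genes 0 rose and 9 fell, and the median fold change was -0.82 (log2): the ETS factor Fli1 fell by 1.02, the VEGF receptor Kdr by 0.93 and the angiopoietin receptor Tek by 0.89 (limma adjusted p = 4.89e-04, 0.00192 and 0.00226). Their summed level was 5898 to 7801 in mutants and 8594 to 18045 in controls, with no gene at 0, and their part in the Sox18 result was not tested. Relative to the mean of these genes, Sox18 differed by -0.087 between the groups (exact permutation p = 0.263). Sox17 was higher relative to that mean by 0.43 (-1.60 to -1.36 in mutants, -2.06 to -1.68 in controls, exact p = 0.00140, adjusted p = 0.00280).

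The lists of vessel subtypes held both directions. Of 9 arterial genes 1 rose and 2 fell: the connexin Gja5 fell by 0.91 and the co-receptor Nrp1 by 0.64, while the Notch target Hey1, which neural cells also express, rose by 0.59 (limma adjusted p = 6.24e-04, 0.00152 and 0.00419). Of 4 measured lymphatic genes 1 rose and 2 fell. Lyve1, which is also made by border macrophages, fell by 2.45 and the VEGF-C receptor Flt4 by 0.59, and Prox1, a target of Sox18 in lymphatic endothelium and also a gene of neural cells, rose by 0.63 (limma adjusted p = 3.01e-08, 0.00940 and 0.00564).

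**Figure D4:**
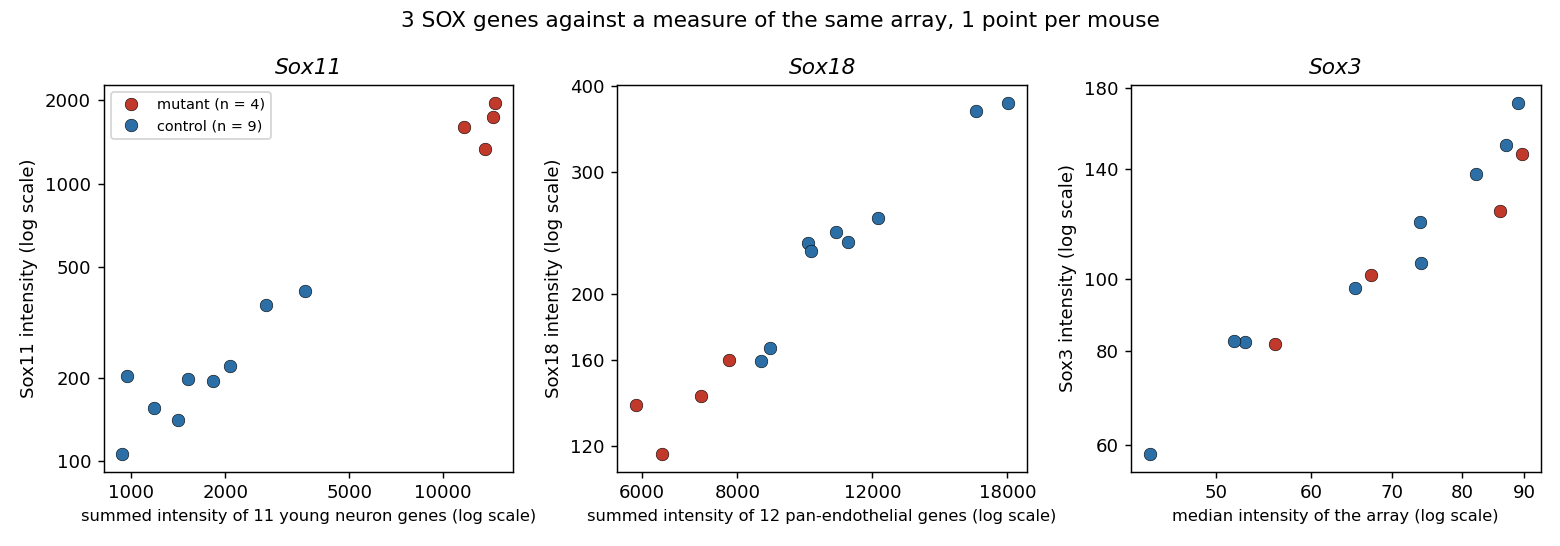
Intensity of Sox11, Sox18 and Sox3 (vertical, log axis) against the summed intensity of 11 young neuron genes, the summed intensity of 12 pan-endothelial genes and the median of the array (horizontal, log axis), 1 point per mouse, mutants in red and controls in blue. Mutants lie at the upper right for Sox11 and at the lower left for Sox18, and for Sox3 the mutants and controls are intermingled along the array median.

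In the controls both SOXF genes followed the endothelial genes, again in values not centred on the array. Sox18 and the mean log2 level of the list had r = 0.96 (exact permutation p = 6.89e-05, adjusted p = 5.86e-04) and rho = 0.98 (adjusted p = 8.43e-04), and r was 0.91 without controls 2 and 6. Sox17 had r = 0.94 (exact p = 1.54e-04, adjusted p = 8.74e-04) and rho = 0.97 (adjusted p = 9.37e-04), with r = 0.85 without them. Sox17 and Sox18 had r = 0.90 with each other (exact p = 0.0012, adjusted p = 0.00477; rho = 0.93, adjusted p = 0.00319), and 0.69 without those mice. The nearest patterns to Sox18 over the 13 mice were the homeobox gene Hhex, the endothelial gene Thsd1 and Sigirr (0.14, 0.17 and 0.18), and those to Sox17 were the VEGF receptor Flt1, Aqp11 and Slc38a11 (0.21, 0.22 and 0.23). The log2 fold changes of Hhex, Thsd1 and Flt1 were -0.63, -0.59 and -0.27.

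The other 10 measured genes of the SOX family gave 3 rises and 0 falls. Sox5, a SOXD gene of cortical neurons, glia and cartilage, was at 235 to 280.5 in mutants and 48.2 to 86.2 in controls, and rose by 1.74 (log2, SE 0.14, limma adjusted p = 1.28e-08). Its relative Sox6 was at 318 to 463 in mutants and 88.5 to 164 in controls, and rose by 1.54 (SE 0.16, limma adjusted p = 5.35e-07). For both the groups were far from overlapping. Sox12, the remaining SOXC gene, was at 189 to 289 in mutants and 126 to 217 in controls and rose by 0.51 (SE 0.14, limma adjusted p = 0.0186), so that all 3 SOXC genes were called in 1 direction, Sox12 less firmly: its adjusted p was 0.0987 without mutant 1 and 0.0641 without mutant 4.

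Sox7, the remaining SOXF gene, was at 67.1 to 103 in mutants and 83.3 to 201 in controls, with a log2 fold change of -0.56 (95% CI -0.95 to -0.16, limma adjusted p = 0.0563), just short of a call. Sox21, a SOXB gene that opposes Sox2 in progenitors, was at 75.5 to 128 in mutants and 61.1 to 125 in controls (adjusted p = 0.473). Sox13, Sox14, Sox15 and Sox30 overlapped between the groups as well (limma adjusted p = 0.739 to 0.964). The probe set of Sry, the Y-linked sex-determining gene, read 127 to 531 in mutants and 36.1 to 483 in the 6 controls in which the Y-linked Eif2s3y was at 1.64 to 3.76, so its signal did not follow that of a Y-linked gene and no level of Sry was read from it.

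The 3 rises among the members held under every one of the 30 alternative analyses, each judged by adjusted p without a fold cut-off. Not all 30 could move a fold change. With 1 probe set per member, the settings on probe sets left it unchanged, as did the filters on dim genes, and only the adjusted p differed. The log2 fold change of Sox2 spanned 1.81 to 2.26, that of Sox4 0.71 to 1.07 and that of Sox11 2.72 to 3.42, with highest adjusted p of 0.00132, 0.0331 and 5.79e-05. For Sox18 the range was -0.86 to -0.50. Its call was lost under 2 of the 30, of which the Xist covariate is 1.

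**Figure D5:**
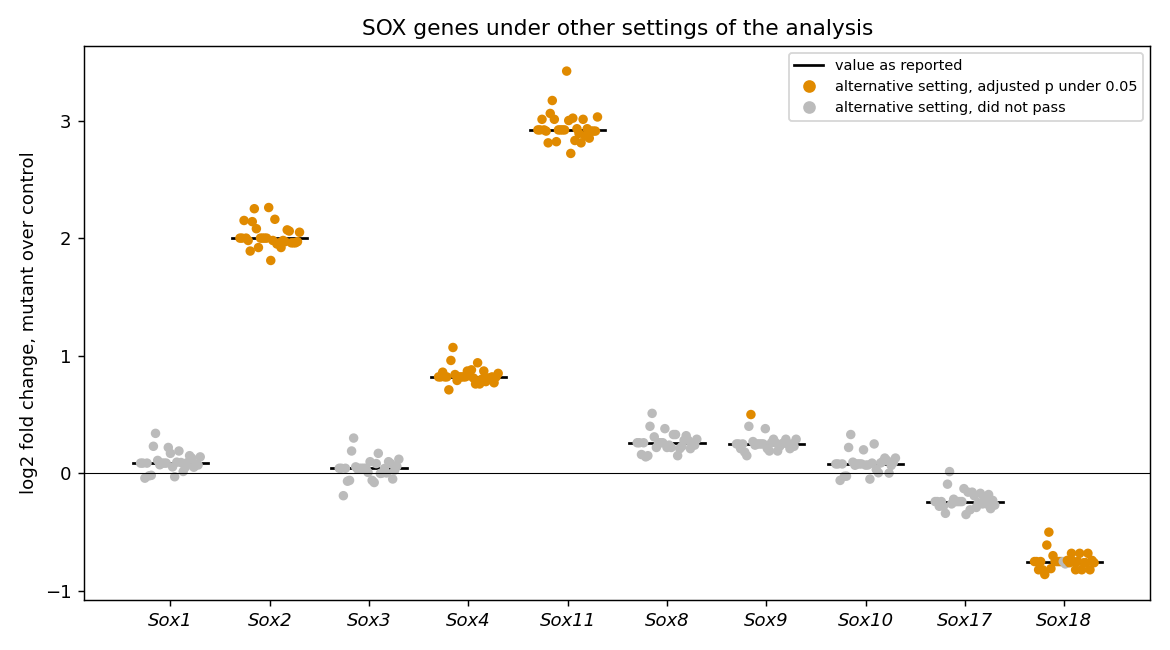
Log2 fold change (mutant over control) of each of the 10 SOX genes under up to 30 alternative analyses (points, orange where the adjusted p was under 0.05 and grey where it was not) and in the analysis reported (line). The points of Sox2, Sox4 and Sox11 stay above 0 and those of Sox18 below 0, those of Sox1, Sox3 and Sox10 lie on both sides of 0, and Sox17 is above 0 under 1 setting.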

How the data were processed

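Total RNA from the cerebral meninges of 4 mutant and 9 control newborn littermates was profiled mouse by mouse on Affymetrix Mouse Gene 1.0 ST arrays. The deposited values are linear-scale intensities that the authors derived from raw data with the PLIER algorithm. Its version, its background correction and whether arrays were scaled to each other are not given in the sources used here. Values of 35557 probe sets were read, of which 21789 carry 1 gene symbol in the platform's table, 1621 carry several and 12147 are not listed there. A gene with several probe sets (999 genes) was represented by the brightest, which gave 19938 genes.

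A constant of 16 was added before taking log2, which shrinks the folds of dim genes. None of the 130 member values lay under 16. Groups were compared with the moderated linear model of limma 3.58.1 (two-sided, R 4.3.3) and Benjamini-Hochberg adjustment. Single values and within-mouse ratios were tested by exact permutation over the 715 splits of the mice (Python 3.11.15). Ranks for Spearman's rho were taken with scipy 1.17.1. On simulated data of 19938 genes, the fit recovered 31.8% of genes changed by 0.5 (log2), 86.6% at 1 and 100% at 2, and made 10 false calls. The simulation changed 200 genes and drew noise independently for each gene and array. It held no brightness shared by the genes of an array, so these rates do not carry over to the deposited values. Arrays have no read depth, so their number limits the precision.

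The members, the marker lists and the tests were chosen with earlier results of these data known. Named genes were the members, every other measured SOX gene, from each list the 3 genes of lowest adjusted p, and for each member the 3 genes nearest in pattern over the 13 mice (z-scored values, arrays centred on their medians). The 30 alternatives cover the test and variance model, scaling, added constant, filters on dim genes, the choice of probe sets, covariates and leaving out mice. The t-test of the methods is among them, but with adjusted p and without the methods' cut-off of a fold above 2. The folds of Sox4 (1.76) and Sox18 (1.69) lie under that cut-off. Mice are separate animals of 1 litter, and the p-values cover only the spread within it. Promoter sequences are from RefSeq; for Sox3, Sox9, Sox10, Sox17 and Sox18 none was matched.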

Additional observations from a re-analysis of the deposited data

Results flagged for a closer look

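Sox30 was at 67.4 intensity units in control 6, below the other 8 controls for that gene by a wide gap (gap over range 0.49). The check covered 40 sets of values of SOX genes within a group, and chance flags about 1 in 20 such sets. Control 6 had the dimmest array, with a median of 44.1.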

How the results depend on the processing

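Sox2, Sox4, Sox11, Sox5 and Sox6 kept their direction and call under all 30 alternatives, and 3 members rose in each except when arrays were centred on fibroblast genes, where Sox9 made it 4. The call of Sox18 was lost with the Xist level as a covariate (-0.75, adjusted p = 0.0825) and with a replicate block (-0.77, adjusted p = 0.0690), so 0 members fell there, against 1 in the other 28. The block rests on mutants and controls 1 to 4 alone, and the numbers do not pair the mice: deviations of same-numbered mice correlated at -0.34, 0.16, 0.31 and -0.09. Without single mice the adjusted p of Sox18 reached at most 0.0451 (limma).

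Sox9 was called only when arrays were centred on fibroblast genes (0.50, adjusted p = 0.0176). Sox7 was called under 11 alternatives, with adjusted p down to 0.00240. Sox12 lost its call with unequal variances (0.132), the Xist covariate (0.100), the block (0.110) and without mutants 1 and 4. For uncalled values the sign turned as follows. With array quality weights Sox1 was at -0.041, Sox3 -0.19, Sox10 -0.06, Sox14 -0.13, Sox30 -0.12 and Sry -0.68. After quantile normalization Sox1 was at -0.021, Sox3 -0.067, Sox10 -0.025 and Sox14 -0.028, and on the array median they were at -0.017, -0.06, -0.024 and -0.044. Centring on fibroblast genes gave 0.015 for Sox17, 0.046 for Sox13 and 0.15 for Sox15, and on reference genes 0.039 for Sox15. The Xist covariate gave -0.054 for Sox14 and -0.43 for Sry, and leaving out the 4 dimmest arrays -0.06 for Sox3, -0.0068 for Sox14 and -0.37 for Sry. Without single mice the ranges were -0.029 to 0.19 for Sox1, -0.078 to 0.17 for Sox3, -0.049 to 0.25 for Sox10, -0.074 to 0.12 for Sox14, -0.26 to 0.037 for Sox15, -0.02 to 0.20 for Sox30 and -0.21 to 0.43 for Sry. The difference of Sox8 and Sox9 was -0.016 with a constant of 32 and -0.038 after quantile normalization, and -0.044 to 0.072 without single mice.

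Over all genes, 1710 rose and 1258 fell. With unequal variances 1139 rose and 400 fell, centred on reference genes 2889 and 862, and centred on fibroblast genes 4885 and 698. With array weights 2033 rose and 2023 fell, after quantile normalization 2542 and 3773, on the array median 1548 and 2140, with the Xist covariate 1144 and 605, and with the block 1284 and 545. Without single mice 1331 to 1904 rose and 777 to 1490 fell, the lowest counts of falls being those without mutant 3 (777) and mutant 1 (778). The median over all genes of the log2 fold change moved to -0.11 with array weights, 0.26 on fibroblast genes, 0.15 on reference genes and -0.0996 on array medians. Filtering out the dimmest 50% of genes removed Sox1, Sox8, Sox10, Sox14, Sox15 and Sox21. The causes were not tested.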
